A study of Mus musculus with 12 samples.

Results

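BV2 cells exposed to oxyhaemoglobin were described here by the level of every gene in the 3 samples that received oxyhaemoglobin alone, out of 12 samples in the series. The rule that chose the samples used their treatment label (oxy-Hb) and no measured value, but earlier results of these data were known. BV2 is a single immortalised line of mouse microglia, made by infecting neonatal microglia with a retrovirus that carries oncogenes. The cells were grown in DMEM with fetal bovine serum and antibiotics, and received oxy-Hb at 10 uM. The other groups of the series, 3 samples each, were PBS alone and oxy-Hb combined with either C3a or C3aRA, and they enter no value below. How long the cells were exposed, and whether the replicates were separate cultures, is not given in the sources used here. No level below says whether oxy-Hb raised or lowered it, because the samples are set against no untreated cells.

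Microglia are the resident macrophages of the brain, and they clear blood after haemorrhage. Haemoglobin that leaves lysed red cells is taken up by receptors or as free haem, haem oxygenase opens the haem ring, and the released iron is stored in ferritin or exported through ferroportin. Haem and its iron also feed oxidant chemistry, which cells counter with the NRF2 programme of thiol, glutathione and pentose phosphate enzymes. The labels call the cells microglia. The markers of the myeloid lineage were present at the levels given below, while several markers that set brain microglia apart from other macrophages were near or at no count.

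The samples held 15375073, 18184027 and 15889587 counts over 22935 listed genes. Levels are given as CPM, the usual scaling of a gene's counts by the total of its sample, and between genes as TPM, the count divided by the merged exon length of the gene and scaled to the same total in each sample. A level of 1 CPM needed at least 16, 19 and 16 counts, and 3 counts, the floor below which a level is not read, to 0.195, 0.165 and 0.189 CPM. At least 1 count in any sample was found for 20842 genes, and 12079 genes (52.7%) reached 1 CPM in all 3 samples. Among protein-coding genes that share was 79.5% (10558 of 13279), with a median level of 25.6 CPM. Both shares serve as the background for the gene lists below. Levels of 1000 CPM or more were reached by 68 genes, and 2326 lay between 100 and 1000 CPM. Genes of the lists that had no row in the tables were not analysed here. Their number is given with some lists only, and each share is of the analysed genes.

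**Figure D1:**
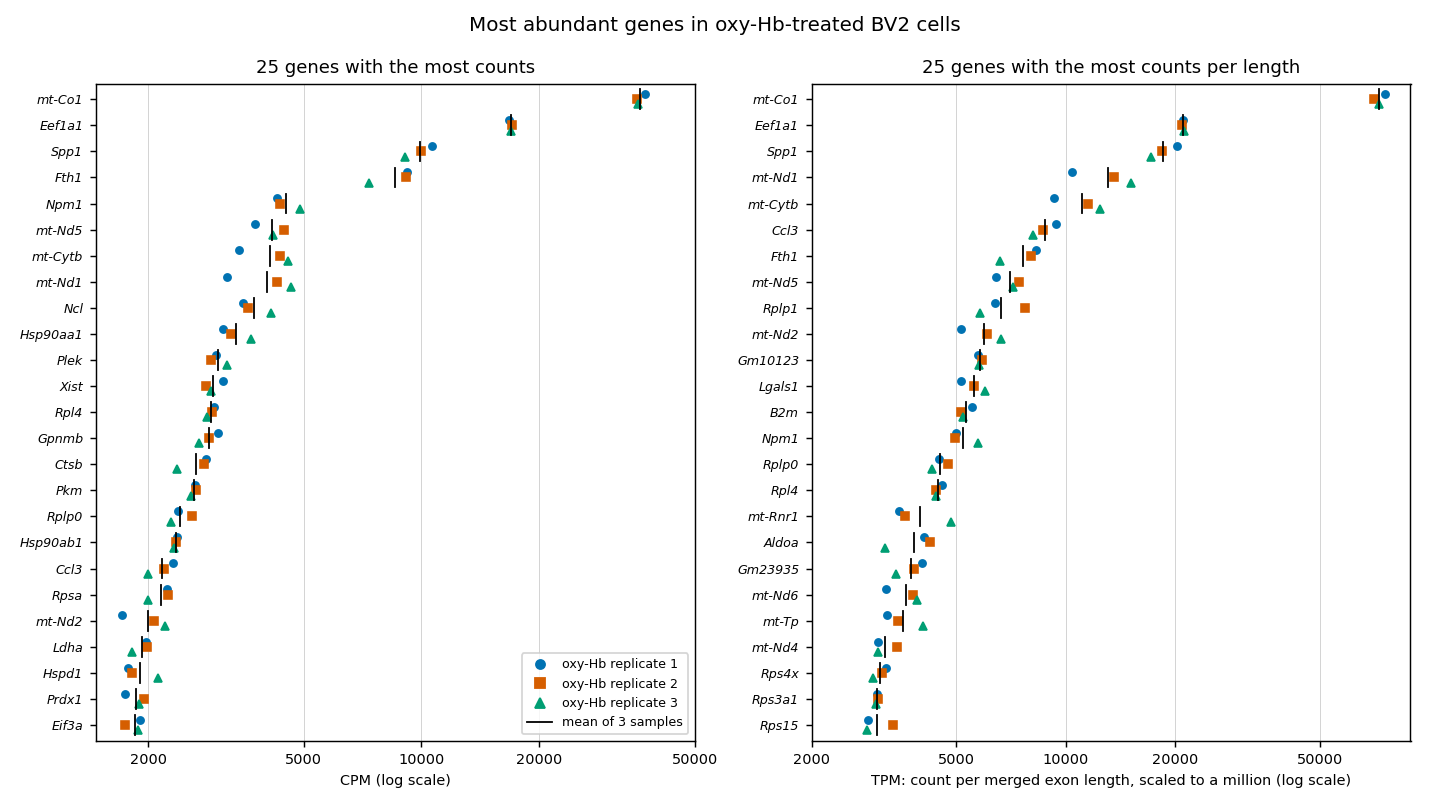
The 25 genes with the highest mean CPM (left) and the highest mean TPM (right), with 1 point per oxy-Hb sample and a bar at the mean, on log axes. mt-Co1, Eef1a1 and Spp1 lead both orders, and Ccl3 moves from place 19 by CPM to place 6 once length is taken into account.

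The most abundant transcript was mt-Co1, a mitochondrially encoded subunit of cytochrome c oxidase, at 37296, 35682 and 35930 CPM. Eef1a1, which delivers aminoacyl-tRNA to the ribosome, followed at 16772, 17099 and 16920 CPM. The third gene was Spp1 (chr5:104435118-104441050), which encodes the secreted phosphoprotein osteopontin, at 10663, 9962 and 9049 CPM. The fourth was Fth1 (chr19:9982703-9985092), the ferroxidase subunit of the iron store ferritin, at 9174, 9143 and 7322 CPM. For Spp1 and Fth1 the lowest value was in replicate 3, and by CPM both stood above every other nuclear gene but Eef1a1 in all 3 samples. The 10 most abundant genes of each sample held 9.55% ± 0.0559 of its counts, and the 100 most abundant 21.5% ± 0.150 (SD, n = 3).

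Among the 25 genes with the highest mean CPM, myeloid or secreted proteins stood beside genes that most growing cells use. Plek, a protein kinase C substrate of platelets and leukocytes, had 3020 ± 142 CPM. Gpnmb, a glycoprotein of the endolysosome, had 2855 ± 155 CPM, and the cathepsin gene Ctsb had 2651 ± 243 CPM. Ccl3, a CC chemokine that draws monocytes, had 2165 ± 155 CPM. The others were nucleolar proteins (Npm1 at 4504 CPM and Ncl at 3732 CPM), chaperones (Hsp90aa1 at 3343, Hsp90ab1 at 2350 and Hspd1 at 1906 CPM), glycolytic enzymes (Pkm at 2617 and Ldha at 1924 CPM), the peroxiredoxin Prdx1 at 1859 CPM, Eif3a at 1845 CPM, and ribosomal and mitochondrial genes. Per length, Lgals1 (5577 TPM), which encodes a galactose-binding lectin, B2m (5298 TPM), the light chain of MHC class I, and Aldoa (3821 TPM) joined the first 25. The first 25 by length held 2 very short gene models, Gm23935 and mt-Tp, whose high TPM rested on 69.1 and 77.4 CPM.

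A single long non-coding RNA reached the first 25. Xist, the RNA that coats the inactive X chromosome, had 3100, 2816 and 2885 CPM. Malat1, a nuclear RNA, had 1545, 1190 and 1990 CPM and was highest in replicate 3, and Neat1, the scaffold of paraspeckles, had 1457 ± 167 CPM. LincRNA genes together held 0.906% ± 0.0753 of the counts (SD, n = 3), so these 3 genes made up most of that share.

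Mitochondrially encoded genes held 5.46% ± 0.146 of the counts (SD, n = 3), and mt-Co1 alone most of that. Their levels were very uneven. Subunits of complex I and complex III had 3184, 4279 and 4641 CPM for mt-Nd1 and 3409, 4337 and 4546 CPM for mt-Cytb, both lowest in replicate 1. By contrast mt-Co2, mt-Co3 and mt-Atp6 had means of 239, 63.5 and 41.8 TPM, against 13030 TPM for mt-Nd1. In the annotation, 100%, 99.9% and 99.5% of the 50-base windows in these transcripts also occur in the transcript of another gene, the nuclear pseudogenes Gm28661, Gm28437 and Gm10925 taking the most, against 0% for mt-Nd1 and 0% for mt-Cytb. The share was 51.1% for mt-Co1, which was nevertheless the highest gene. How the authors counted reads that match several genes is not given in the sources used here, and its part in these levels was not tested.

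Shared windows were also found in nuclear genes, at high and at low levels. Eef1a1, the second most abundant gene by CPM, shares 39.4% of its windows. Gapdh, a glycolytic enzyme, had 126, 114 and 117 CPM, which per length is 89.04 TPM against 3821 TPM for Aldoa, an enzyme of the same pathway, and 24.7% of its windows are shared. Ppia, the peptidylprolyl isomerase cyclophilin A, had 41.8, 42.5 and 35.6 CPM, while its processed pseudogene Gm10123, all of whose windows also occur in Ppia, had 898, 947 and 909 CPM. Per length Gm10123 exceeded Ppia by a factor of 166 ± 15.5 (SD, n = 3). Other pseudogenes with a high count were Eif4a-ps4 (586 CPM, 95.7% of windows shared, mostly with Eif4a1), Rps6-ps4 (514 CPM, 100% shared, with Rps6) and Rpl3-ps1 (461 CPM, 95.7% shared, mostly with Rpl3). Protein-coding genes with over 50% of their windows shared had a median of 1.82 TPM (364 genes), and those with up to 10% shared 17.8 TPM (11901 genes). Overlap with another gene's exons went the same way, with a median of 1.19 TPM over 50% overlap (265 genes) and 18.5 TPM at up to 10% (11379 genes). Where over 50% of a gene named below is shared or overlapped, that share is given beside it.

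The 84 genes of cytosolic ribosomal proteins held 3.80% ± 0.191 of the counts (SD, n = 3), with a median of 203.5 CPM. Of these, 5 lay under 10 CPM, among them Rpl24 at 0.455, 1.04 and 0.503 CPM, which shares 51.8% of its windows with other genes. Among the KEGG pathways written in the deposited tables, RNA transport held 4.43% ± 0.0489 of the counts, the ribosome 4.07% ± 0.201, the lysosome 1.94% ± 0.0784, ferroptosis 1.40% ± 0.105 and oxidative phosphorylation 1.47% ± 0.0548 (SD, n = 3). By CPM, Eef1a1 was the highest gene of RNA transport, Fth1 that of the ferroptosis pathway and Ctsb that of the lysosome. Eef1a1 and Fth1 were among the most abundant genes of all, so much of the RNA transport and ferroptosis shares came from single genes. The highest of oxidative phosphorylation was Atp5b, so the share of that pathway leaves out mt-Co1, the most abundant gene of all.

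**Figure D2:**
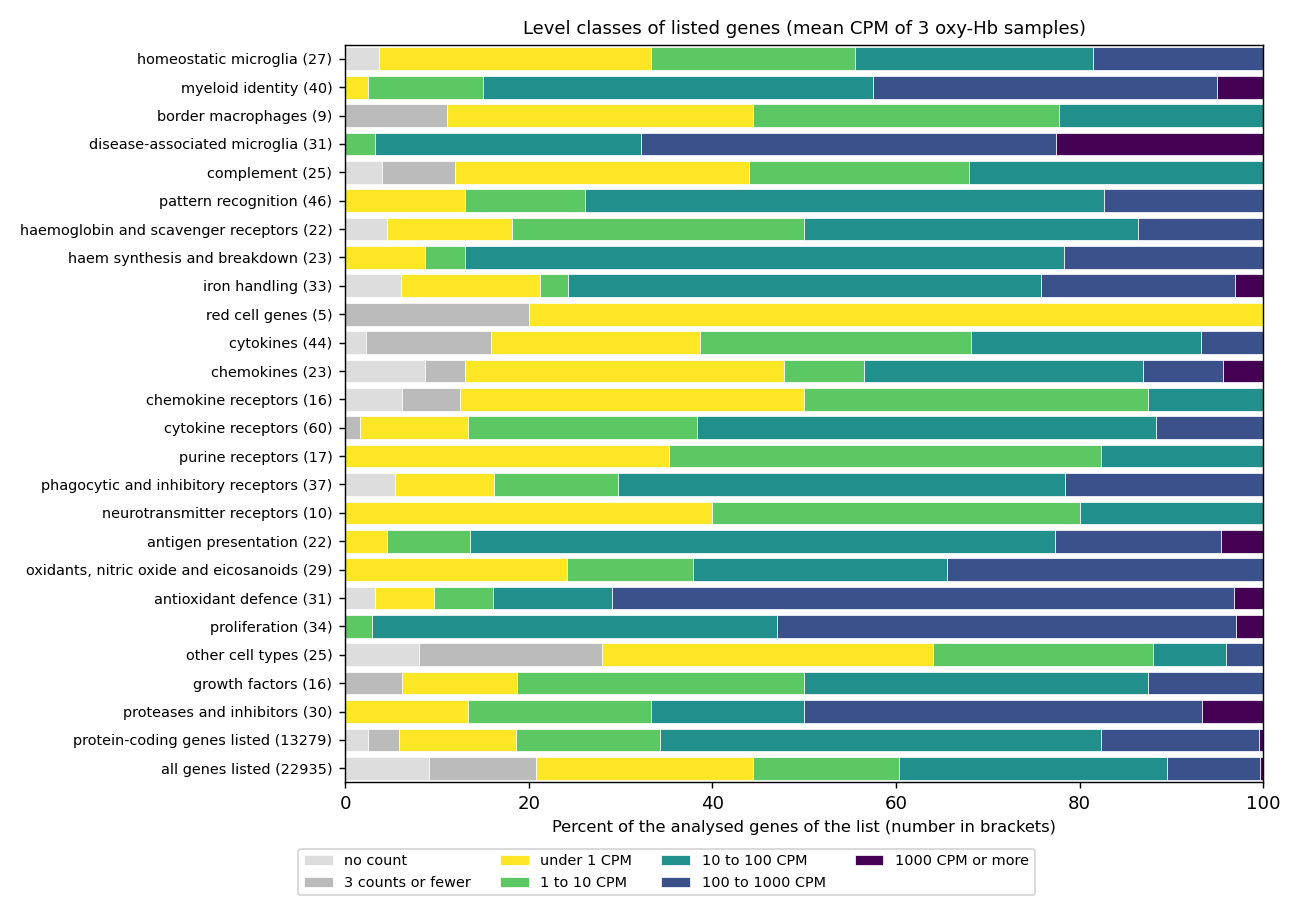
Share of the analysed genes of each list in each level class, from no count in any sample to 1000 CPM or more, with protein-coding genes and all genes at the bottom. Disease-associated microglia and proliferation genes lie wholly above 1 CPM on average, and red cell genes wholly below it.

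Myeloid genes were broadly expressed. Of 40 genes of myeloid identity, 37 (92.5%, against 79.5% of protein-coding genes) reached 1 CPM in all samples, with a median of 76.5 CPM. Lyz2, the lysozyme of macrophages and granulocytes, had 1196, 1144 and 1035 CPM, and Cd68, a glycoprotein of macrophage lysosomes, 902, 929 and 804 CPM. Both were lowest in replicate 3. The adaptors that couple Fc receptors and TREM2 to SYK had 1047 ± 90.5 TPM for Fcer1g and 762 ± 94.5 TPM for Tyrobp, against 28.7 ± 2.16 TPM for Syk itself. The common leukocyte phosphatase Ptprc (CD45) had 439.6 ± 15.1 CPM, and Adgre1, the macrophage antigen F4/80, 244 ± 11.7 CPM. Laptm5 had 132 CPM, Itgb2, the shared chain of the leukocyte integrins, 83.2 CPM, and Itgam, the alpha chain of complement receptor CR3 (CD11b), 42.5 CPM. Itgam shares 66.3% of its windows with the gene model Gm49368, and 68.7% of its exon bases lie in exons of another gene. In these bulk samples fewer cells with a transcript and less of it per cell cannot be told apart.

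Transcription factors of the lineage were listed as a group of 10 with a median of 31.8 CPM, and all 10 reached 1 CPM in all samples. Spi1 (PU.1), the factor that sets myeloid fate, had 49.04, 55.5 and 52.5 CPM. Irf8, which acts with PU.1, had 51.1, 52.2 and 45.5 CPM, Runx1 25.97 CPM, Cebpb 31.02 CPM, Maf 3.22 CPM and Cebpa 1.91 CPM. Csf1r, the receptor on which microglia depend for survival, had 66.02, 74.1 and 64.2 CPM, and its ligand Csf1 was made by the cells at 98.5, 94.9 and 99.8 CPM. Aif1, which encodes the microglial antigen IBA1, was low and uneven at 12, 53 and 30 counts, a mean of 1.86 CPM. Without replicate 2 that mean is 1.33 CPM.

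Markers that set brain microglia apart were mostly low. Of 29 homeostatic genes, 2 (Sall1 and Slco2b1) were not analysed here, and 18 of 27 (66.7%) reached 1 CPM in all samples, with a median of 5.64 CPM. Among protein-coding genes the share was 79.5% and the median 25.6 CPM. Siglech, a sialic acid receptor, had no count in any sample. The ADP receptor P2ry12, which steers process extension, had 39, 71 and 24 counts (2.65 CPM), and the surface protein Tmem119 37, 34 and 33 counts (2.12 CPM). P2ry12 was highest in replicate 2 and lowest in replicate 3, while Tmem119 was nearly level. Gpr34, a lysophosphatidylserine receptor, had 7, 2 and 8 counts, Fcrls, an Fc receptor-like protein, 1, 9 and 0 counts, and the secreted protein Olfml3 16, 12 and 12 counts. Cx3cr1, the fractalkine receptor, had 5.85, 7.15 and 8.75 CPM.

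The homeostatic genes that were abundant have roles beyond that state. The lysosomal protease Ctss had 414 CPM, the cathepsin inhibitor Cst3 274 CPM, and the factors Mef2c and Mef2a 261 and 139 CPM. Entpd1 (CD39), an ectonucleotidase, had 77.6 CPM and Selplg, the ligand of P-selectin, 41.6 CPM.

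**Figure D3:**
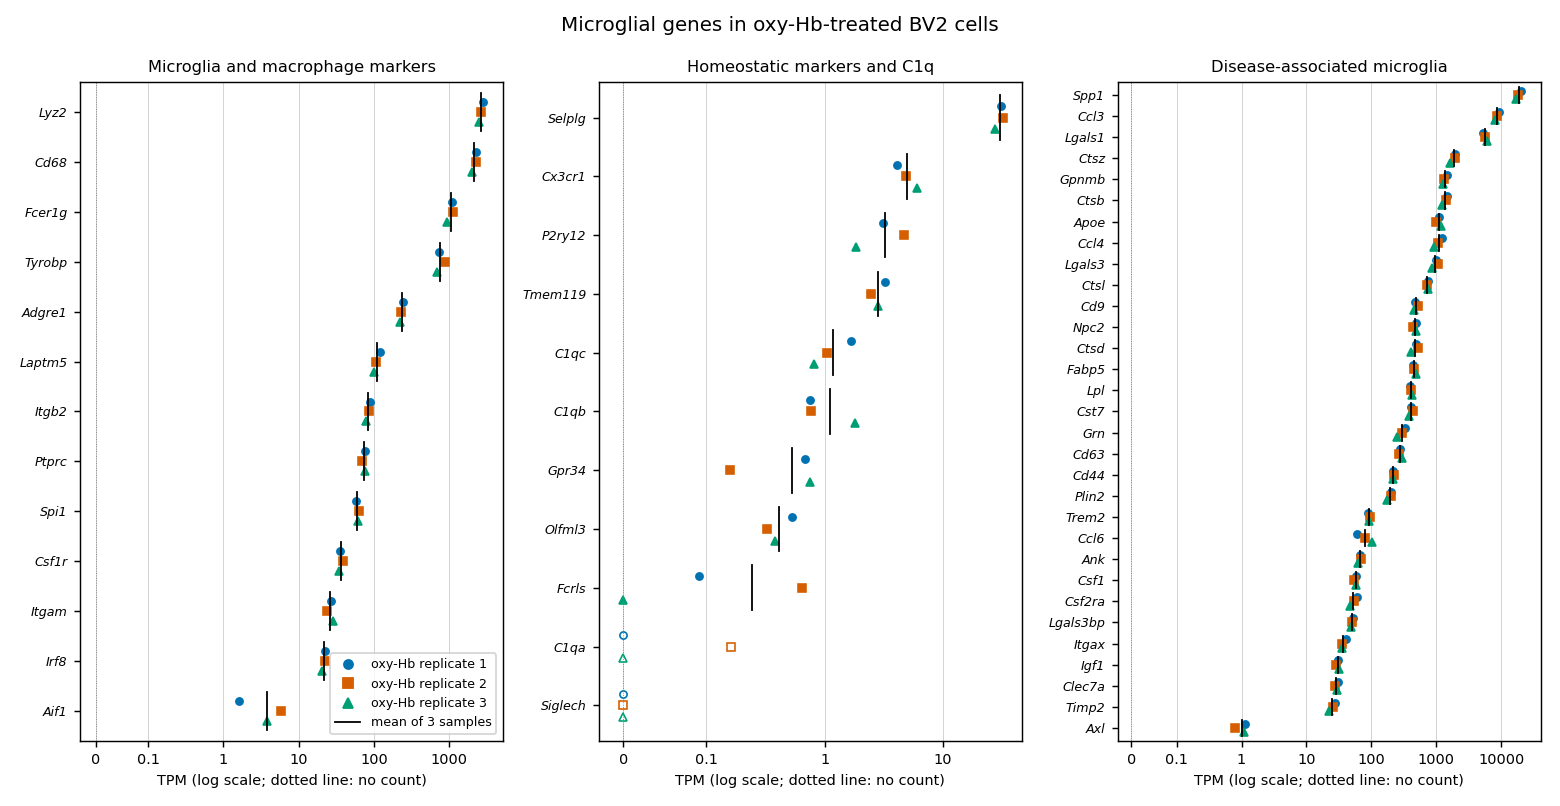
TPM of macrophage markers, of homeostatic markers with the C1q chains, and of genes of disease-associated microglia, with 1 point per oxy-Hb sample and a bar at the mean on log axes. Open points mark genes with 3 counts or fewer in every sample, and points on the dotted line have no count. Aif1 is the only macrophage marker plotted with a mean below 10 TPM, and Selplg is the only homeostatic marker plotted above it.

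Genes of disease-associated microglia, the state found around plaques and damaged myelin, were expressed throughout. All 31 analysed genes reached 1 CPM in all samples (100%, against 79.5% of protein-coding genes), with a median of 328 CPM. Their sum was 28748 ± 1381 CPM (SD, n = 3). Per length the order was Spp1 (18559 ± 1546 TPM), Ccl3 (8739 ± 633 TPM), Lgals1 (5577 ± 416 TPM) and Ctsz (1851 ± 206 TPM), and each of these stood above the next in every sample. Gpnmb and Ctsb, next in order at 1355 and 1354 TPM, overlapped. Several members have roles beyond that state. Ctsb, Ctsz, Ctsl and Ctsd are also listed with the proteases, and Ccl3 and Ccl4 with the chemokines. The share alone does not place the cells in that state.

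Lipid genes of the state were among the high ones. Lpl, the lipase that releases fatty acids from lipoproteins, had 1311, 1425 and 1430 CPM, and Apoe (chr7:19696109-19699188), the lipid carrier, 743, 706 and 823 CPM. Apoe was highest in replicate 3, where Spp1 was lowest, and the ratio of Spp1 to Apoe per length was 18.6, 18.3 and 14.3 in the 3 samples. The fatty acid binding protein Fabp5 had 531 CPM, the cholesterol carrier Npc2 826 CPM and the lipid droplet coat Plin2 220.4 CPM. Trem2, the lipid-sensing receptor that drives the state, had 142, 156 and 145 CPM. Axl, which binds apoptotic cells through Gas6, was the lowest of the 31 at 28, 24 and 28 counts (1.63 CPM), and Gas6 had no count.

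Border macrophage markers gave a split picture. Of 9 analysed, 4 reached 1 CPM in all samples, and 3 (Cd163, Cd209f and Timd4) were not analysed here. Pf4, a platelet and macrophage chemokine, had 63.5, 54.8 and 55.8 CPM, and Stab1, a scavenger receptor, 34.8 CPM. The mannose receptor Mrc1 had 10, 20 and 15 counts, the hyaluronan receptor Lyve1 7, 20 and 28 counts and Folr2, with 63.1% of exon bases overlapped, 0, 0 and 2 counts.

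Markers of other cells were mostly near the floor. Of 73 genes for astrocytes, neurons, oligodendrocytes, endothelium, fibroblasts, lymphocytes, granulocytes, monocytes and mast cells, 25 were analysed here, 9 of them reached 1 CPM in all samples, and the median was 0.344 CPM. Flt1, the VEGF receptor counted here with endothelium, had 120.2, 117 and 123 CPM, while the endothelial markers Pecam1, Tek and Kdr had 11, 2 and 10 counts, 0, 5 and 2 counts and 1, 0 and 2 counts. Aldoc, the brain aldolase, had 88.9 CPM, beside Gfap at 0, 5 and 1 counts and S100b at 6, 7 and 4 counts. Cnp, an oligodendrocyte gene that other cells also use, had 23.1 CPM, and Mbp, whose gene also yields transcripts in haematopoietic cells, 7.63 CPM. Of lymphocyte and granulocyte markers, Lck had 4.48 CPM, Cd3d, Cd4, Cd79a and Cd79b were at or under 3 counts in every sample, and Mpo and Elane had no count.

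Red cell RNA was near the floor. Hba-a1, the alpha globin gene, had 0, 0 and 1 counts, with 72.3% of its windows shared with Hba-a2, which was not analysed here. The erythroid factors Klf1 and Gata1 had 7, 7 and 2 counts and 2, 0 and 5 counts. Alas2, the erythroid form of the first enzyme of haem synthesis, had 11, 12 and 17 counts, and none of the 5 analysed red cell genes reached 1 CPM in all samples.

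Complement genes were read next, since the series turns on the C3a receptor. C3 is cut by convertases to C3a, which signals through C3AR1, while C1q starts the classical pathway. C3ar1 (chr6:122847138-122856161) had 62.4, 78.9 and 68.98 CPM, highest in replicate 2, and the C5a receptor C5ar1 20.9, 23.4 and 18.7 CPM. Per length C3ar1 stood 1.998 ± 0.213 times above C5ar1 (SD, n = 3), higher in all 3 samples, and C5ar2 had 3.22 CPM. C3 itself (chr17:57203970-57228136) was transcribed at 32.6, 27.4 and 25.6 CPM, and per length C3ar1 exceeded it by a factor of 2.98 ± 0.612 (SD, n = 3). The integrin chains of complement receptors, Itgam, Itgax and Itgb2, had 42.5, 57.7 and 83.2 CPM, and all 7 analysed receptors reached 1 CPM in all samples.

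Of the 14 analysed components, 4 did so (28.6%), namely Cfp, C3, C1ra (50.8% of windows shared, most with C1rb) and C4b. Among protein-coding genes the share was 79.5%. Cfp, properdin, which stabilises the alternative convertase, led at 35.7, 43.4 and 35.8 CPM. The 3 chains of C1q, which brain microglia make in quantity, were nearly without counts, with 0, 1 and 0 counts for C1qa, 4, 5 and 10 counts for C1qb and 16, 12 and 8 counts for C1qc. The regulators Cr1l and Cd46 had 36.7 and 6.06 CPM and Serping1, the C1 inhibitor, no count. Of the list, 8 genes, Cfb among them, were not analysed here.

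Uptake and breakdown of haem were read in order of the pathway. Lrp1, the receptor of haem bound to haemopexin, had 356, 337 and 320.3 CPM, but haemopexin itself (Hpx) had no count and haptoglobin (Hp) 36, 57 and 65 counts. Cd163, the receptor of the haptoglobin complex, was not analysed here. Slc48a1 (HRG1), which carries haem out of the lysosome, had 99.1, 96.3 and 79.2 CPM, and the haem exporters Flvcr1 and Abcg2 50.6 and 6.80 CPM. Of the scavenger receptors, Colec12 had 209 CPM, Scarb2 79.3, Scarb1 63.2, Cd36 13.6 and Msr1 17.1 CPM, while Marco had 1, 8 and 5 counts. Over the whole list 16 of 22 analysed genes (72.7%) reached 1 CPM, a share below that of protein-coding genes.

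Hmox1 (chr8:75093621-75100589), the inducible haem oxygenase, had 937, 837 and 779 CPM, a CV of 9.38%. It was the highest haem gene in every sample and exceeded its constitutive partner Hmox2 by a factor of 9.18 ± 1.30 per length (SD, n = 3), with 10.6, 8.96 and 8.003 in the samples. Of Hmox2, 40.2% of exon bases lie in exons of another gene. The next enzymes, which turn biliverdin into bilirubin, had 160.3 CPM for Blvra and 52.1 CPM for Blvrb, and the electron donor Por 111 CPM. All 5 breakdown genes reached 1 CPM in all samples.

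Haem synthesis was lower per length, with a median of 17.4 TPM over 9 enzymes, against 164 TPM over the 5 breakdown genes. Alas1, the housekeeping form of the first enzyme, had 47.2 CPM. Alad, the second enzyme, was uneven at 4.81, 9.73 and 5.54 CPM, and Fech, which inserts iron, had 35.3 CPM. Of the factors that answer to haem, Bach1, the repressor that haem releases from DNA, had 52.8, 55.8 and 55.5 CPM, and Nfe2l2 (NRF2), which then drives Hmox1, 175, 183 and 177 CPM. Their shared partners Mafg, Mafk and Maff had 87.6, 22.5 and 18.8 CPM, and Keap1, the brake on NRF2, 16.9 CPM.

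**Figure D4:**
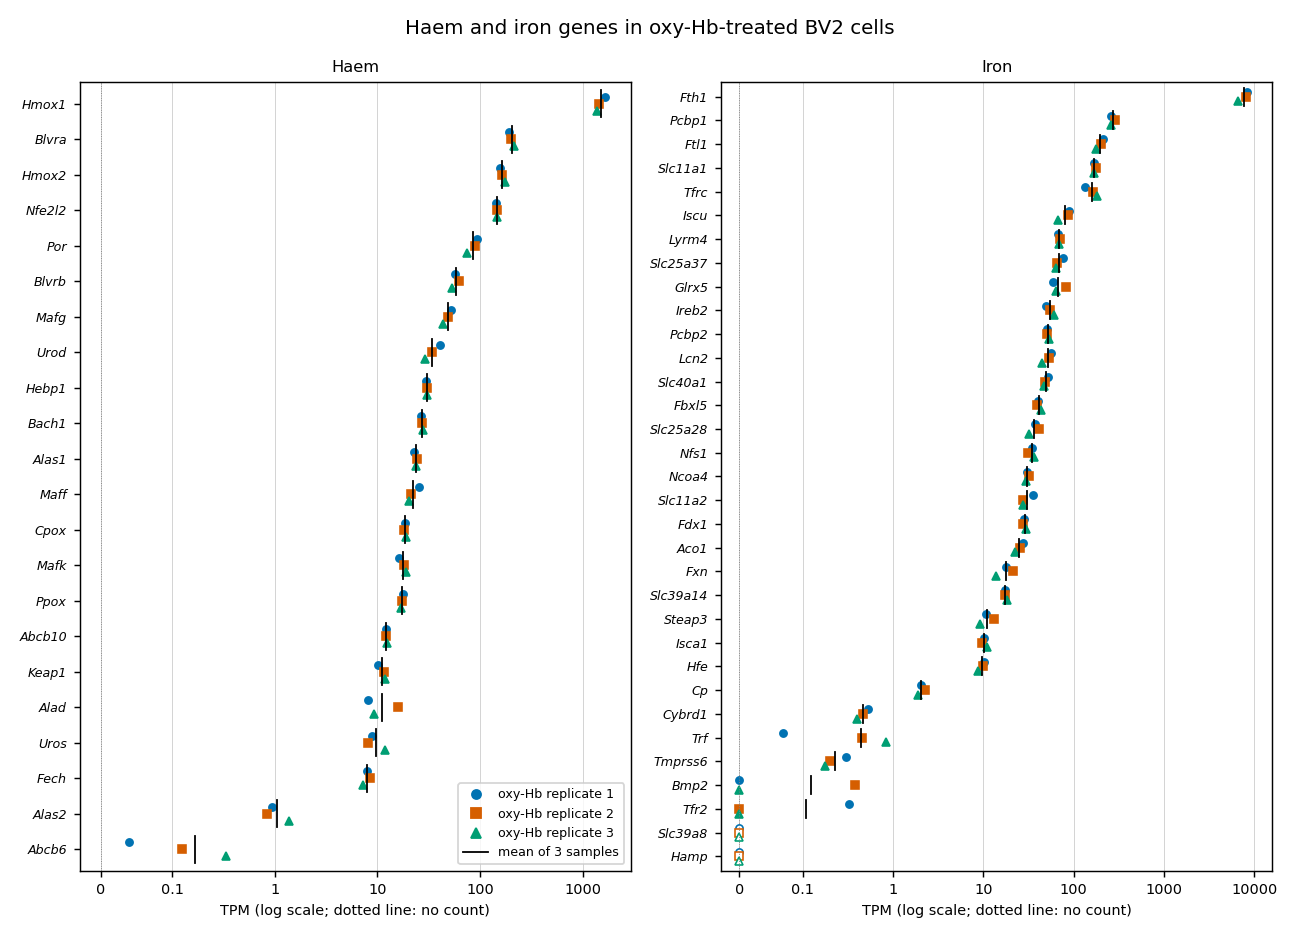
TPM of genes of haem synthesis, breakdown and response (left) and of iron handling (right), with 1 point per oxy-Hb sample and a bar at the mean on log axes. Points on the dotted line have no count. Hmox1 and Fth1 lead their panels in all 3 samples, and Hamp and Slc39a8 have no count.

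Iron genes were expressed in all roles. Iron regulatory proteins bind a stem and loop in the messenger RNA, the iron-responsive element, and block translation when it lies in the 5′ UTR or protect the transcript when it lies in the 3′ UTR. These elements let protein move apart from the RNA levels measured here, so those of a selection of known haem and iron genes are shown. A search of the annotated UTRs for a C, a stem of 5 bases, the loop CAGTGN and 5 bases that pair with the stem, G-T pairs allowed, found it in the 5′ UTR of 31 of 20916 genes (0.148%) and in the 3′ UTR of 129 of 21707 genes (0.594%). The elements are given 5′ to 3′ as DNA of GRCm38, with the 6 bases of the loop in capitals. Some genes outside haem and iron handling also held a match, Ppia, Ptgs1, Trem1 and Kdm5c among them, and a match is a description of the letters only.
Fth1, 5′ UTR, chr19:9982738-9982754, plus strand: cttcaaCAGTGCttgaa
Ftl1, 5′ UTR, chr7:45459785-45459801, minus strand: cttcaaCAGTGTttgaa
Slc40a1, 5′ UTR, chr1:45925471-45925487, minus strand: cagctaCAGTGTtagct
Alas2, 5′ UTR, chrX:150547464-150547480, plus strand: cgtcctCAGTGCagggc
Tfrc, 3′ UTR, chr16:32631225-32631241, plus strand: cggaagCAGTGCcttcc
Tfrc, 3′ UTR, chr16:32631604-32631620, plus strand: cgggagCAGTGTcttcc
Tfrc, 3′ UTR, chr16:32631669-32631685, plus strand: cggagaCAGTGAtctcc
Tfrc, 3′ UTR, chr16:32631716-32631732, plus strand: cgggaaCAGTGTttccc

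Tfrc holds 4 matches in its 3′ UTR and each of the others shown 1 in its 5′ UTR. The genes that carry them spanned nearly the whole range of levels. Fth1 had 141058, 166255 and 116338 counts, and Alas2 was under 1 CPM in replicates 1 and 2. Tfrc (chr16:32608920-32632794), the transferrin receptor through which cells take up iron, had 264, 329 and 364 CPM, lowest in replicate 1. Slc40a1 (chr1:45908068-45926523), ferroportin, the iron exporter, had 149, 143 and 137 CPM. Tfrc exceeded Slc40a1 per length by factors of 2.58, 3.35 and 3.87, so importer stood above exporter in every sample.

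The ferritin subunits differed widely. Ftl1 (chr7:45457944-45459884), the light chain, had 89.8, 87.7 and 76.2 CPM, and Fth1 exceeded it per length by a factor of 39.0 ± 1.63 (SD, n = 3). Ftl1 shares 50.9% of its windows with other genes, most with the pseudogene Ftl1-ps1, and 34.6% of its exon bases lie in exons of another gene, against 1.59% and 0% for Fth1, and the part of counting in this gap was not tested. Ncoa4, which carries ferritin to the lysosome for iron release, had 91.6, 98.5 and 88.9 CPM. The iron chaperones Pcbp1 and Pcbp2 had 159.5 and 86.9 CPM.

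Transporters of the endosome were present beside Tfrc. Slc11a1 (NRAMP1), the metal transporter of the phagosome, had 199, 213 and 198 CPM, and Slc11a2 (DMT1) 72.7, 57.4 and 56.6 CPM. Slc39a14 (ZIP14), which takes up iron not bound to transferrin, had 58.1, 60.2 and 61.8 CPM, while its relative Slc39a8 (ZIP8) had no count in any sample, which allows up to 3 counts or 0.195 CPM. Lcn2, a siderophore-binding protein that activated macrophages secrete, had 43.7 CPM and the ferrireductase Steap3 20.3 CPM, and Cybrd1, Trf (59.4% of windows shared and 63.5% of exon bases overlapped) and Tfr2 were under 1 CPM. Hamp, the hormone hepcidin that closes ferroportin, had no count.

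The regulators Ireb2 (IRP2), Aco1 (IRP1) and Fbxl5, which marks IRP2 for decay, had 169.5, 36.5 and 129.5 CPM. All 9 genes of mitochondrial iron use reached 1 CPM in all samples, from 10.2 TPM for Isca1 to 80.5 TPM for Iscu, both of iron-sulfur cluster assembly. Over the whole list 26 of 33 analysed genes (78.8%) reached 1 CPM, near the share of protein-coding genes, and 11 were not analysed here.

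Antioxidant genes were high. Of 31 analysed genes, 28 (90.3%) reached 1 CPM in all samples and 22 averaged 100 CPM or more, with a median of 132 CPM. Among protein-coding genes 79.5% reached 1 CPM in all samples. Slc7a11, the cystine importer that feeds glutathione, had 820.5, 786 and 896 CPM. The glutathione ligase subunits Gclc and Gclm had 132 and 89.1 CPM, thioredoxin reductase Txnrd1 236 CPM and sulfiredoxin Srxn1 95.5 CPM. Of the pentose phosphate enzymes, Pgd and G6pdx, which supply NADPH, had 446 and 255 CPM, and Taldo1 had 269 CPM. Nqo1, a quinone reductase that is often used as a readout of NRF2, was low at 3.90, 2.75 and 3.21 CPM. Per length it was the lowest of the 12 NRF2 targets on average (6.55 ± 1.23 TPM), next to the stress-induced Osgin1 (9.48 ± 1.43 TPM).

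Peroxiredoxin Prdx1 had 1742, 1945 and 1890 CPM, thioredoxin Txn1 285 CPM, superoxide dismutases Sod1 and Sod2 352 and 110 CPM and catalase 242 CPM. Gpx4, which repairs lipid peroxides and holds back ferroptosis, had 118 CPM and Gpx1 175 CPM. The metallothioneins, which bind zinc and copper, split, with 199, 240.5 and 243 CPM for Mt1, 8, 13 and 7 counts for Mt2 and no count for Mt3. Of the exon bases of Mt2, 73.5% lie in exons of another gene, the antisense Gm45774 (9, 8 and 4 counts), and its windows are shared at 0%.

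**Figure D5:**
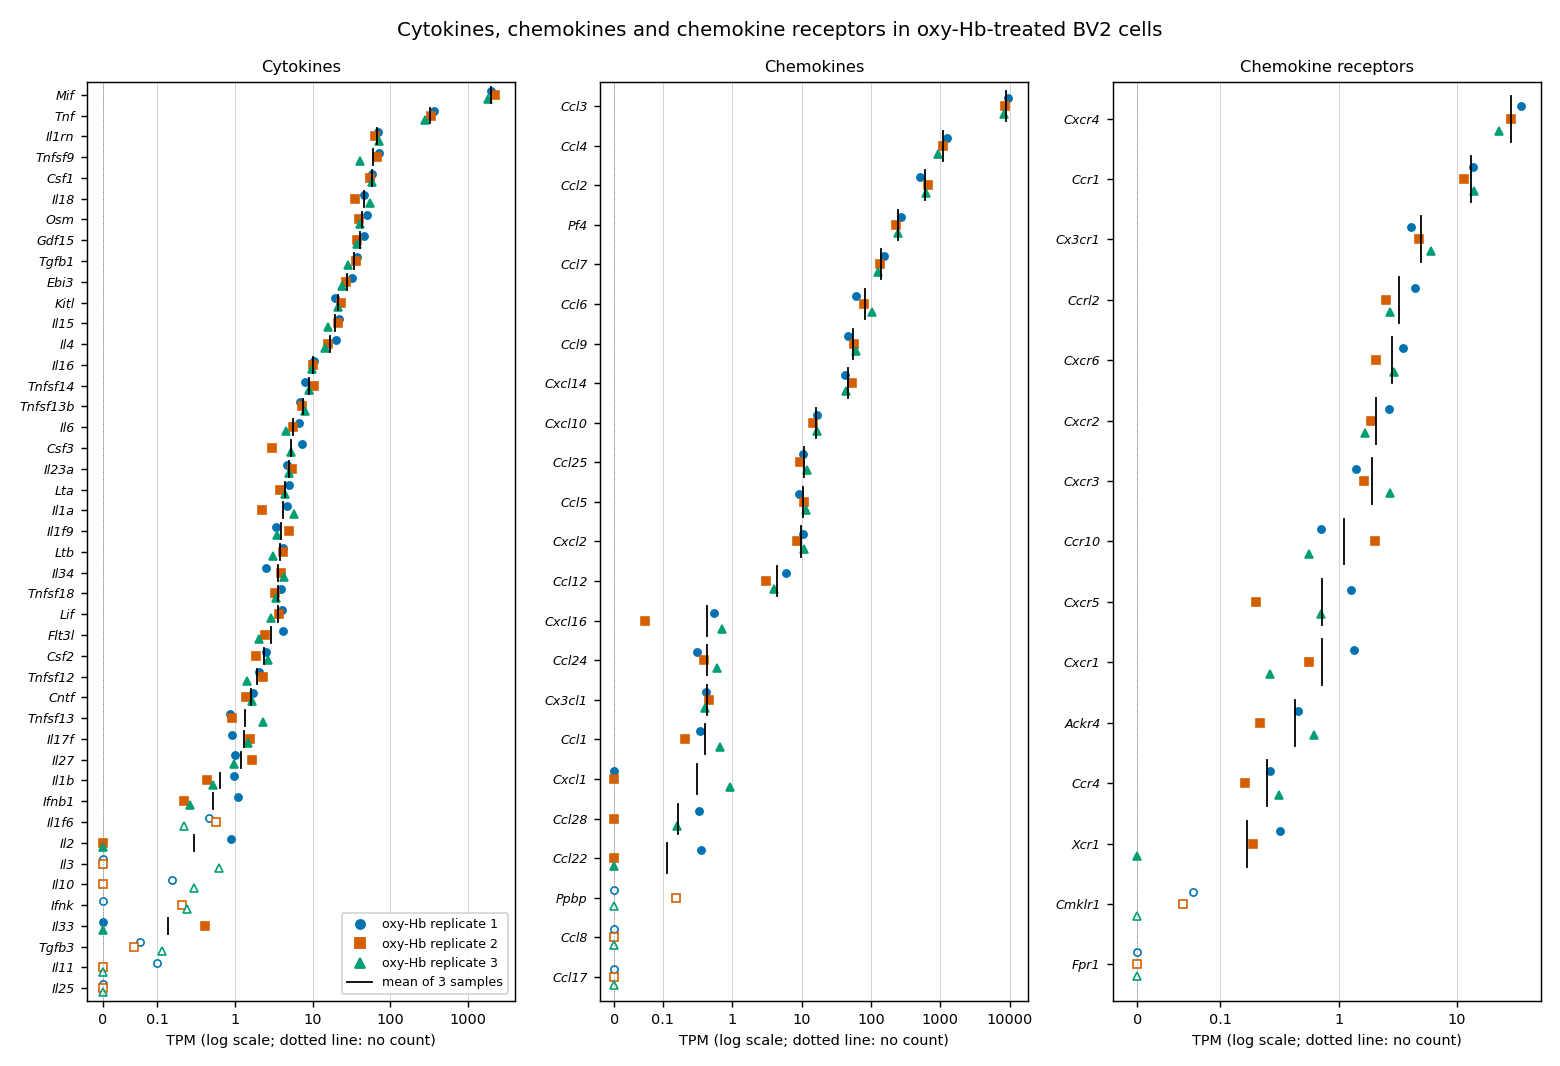
TPM of analysed cytokines, chemokines and chemokine receptors, with 1 point per oxy-Hb sample and a bar at the mean on log axes. Open points mark genes with 3 counts or fewer in every sample, and the dotted line marks no count. Mif leads the cytokines and Ccl3 the chemokines in all 3 samples, and no chemokine receptor reaches 100 TPM.

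Few cytokines were abundant. Of 85 listed, 44 were analysed here. Of these, 27 (61.4%, against 79.5% of protein-coding genes) reached 1 CPM in all samples, and 3 averaged 100 CPM or more. Those were Mif, an inhibitor of macrophage migration with isomerase activity, at 466, 545 and 435 CPM, Tnf (chr17:35199381-35202007) at 189.5, 178 and 148 CPM, and Il1rn (chr2:24336853-24351494), the interleukin-1 receptor antagonist, at 123, 117 and 126 CPM. Tnf was lowest in replicate 3, and Il1rn was nearly level. Of Mif, 34.1% of windows are shared with other genes. Further cytokines above 20 CPM were Csf1 (97.7 CPM), Tgfb1 (55.2), Kitl (40.8), Osm (31.8), Il16 (25.8), Tnfsf9 (24.9) and the stress-induced Gdf15 (24.1 CPM).

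The interleukin-1 agonists were low beside their antagonist. Il1b had 9, 5 and 5 counts and Il1a 45, 26 and 57 counts, and Il1rn exceeded Il1b per length by factors of 72.5, 146 and 139 and Il1a by 15, 29.13 and 12.58. Il18, which needs no induction in macrophages, had 15.02, 12.04 and 18.1 CPM. Il6 had 5.20, 4.51 and 3.52 CPM, Il23a 3.60 CPM, Ebi3 10.3 CPM and Lif 4.99 CPM. Il10 was at the floor (1, 0 and 2 counts) and Ifnb1 near it (4, 1 and 1 counts). Csf2 had 10, 9 and 11 counts and Csf3 51, 25 and 38 counts. Il4, a product of T cells and granulocytes, was listed with 122, 116 and 91 counts (6.68 CPM).

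Chemokines were led by CC ligands. Ccl3 (chr11:83647844-83649355) had 2308, 2187 and 2000 CPM, Ccl4 263, 234 and 197 CPM, and Ccl2, which draws CCR2-bearing monocytes, 184, 250.3 and 229 CPM. Ccl3 exceeded Ccl4 per length by a factor of 8.13 ± 0.586 and Ccl2 by 14.9 ± 3.28 (SD, n = 3). Ccl2 was lowest in replicate 1, where Ccl3 and Ccl4 were highest. Ccl9, Ccl6 and Ccl7 had 54.3, 47.1 and 35.6 CPM, Cxcl14 27.7, Cxcl10, an interferon-induced ligand, 11.7, Cxcl2, which draws neutrophils, 6.63 and Ccl5 3.28 CPM. Cxcl1 had 0, 0 and 9 counts, and Ccl8 and Ccl17 had none. In all 12 of 23 analysed chemokines (52.2%) reached 1 CPM in all samples, against 79.5% of protein-coding genes.

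Chemokine receptors were low. Of 16 analysed, 7 (43.8%) reached 1 CPM in all samples, against 79.5% of protein-coding genes, and the whole list summed to 48.4 ± 4.16 CPM (SD, n = 3). Cxcr4, the receptor of CXCL12, led at 20.2, 16.9 and 13.03 CPM, then Ccr1 at 12.4, 10.8 and 12.7 CPM and Cx3cr1. Fpr1, a receptor of formylated peptides, had no count. Ccr2 was not analysed here.

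Of cytokine receptors, 51 of 60 analysed genes (85%) reached 1 CPM in all samples, near the 79.5% of protein-coding genes. Their median was 17.1 CPM against 25.6 CPM. Tnfrsf9 (4-1BB) led at 218, 201 and 195 CPM, and its ligand Tnfsf9 had 29.3, 28.3 and 17.1 CPM. Il13ra1, a chain of the type II interleukin-4 receptor, had 142 CPM, Csf2rb, the signalling chain for GM-CSF, 134 CPM, Il6st (gp130) 113 CPM and Il7r 88.6 CPM. The receptors for TNF were Tnfrsf1b at 77.6, 66.5 and 62.4 CPM and Tnfrsf1a at 30.7, 29.1 and 23.6 CPM, and Tnfrsf1b was higher per length by a factor of 1.69 ± 0.125 (SD, n = 3). Interferon receptors all passed 1 CPM, from 6.37 CPM for Ifnlr1 to 91.9 CPM for Ifngr2. The signalling receptor of interleukin-1, Il1r1, had 6.13 CPM and the decoy Il1r2 2.48 CPM. Bmpr2, Bmpr1a, Tgfbr1 and Tgfbr2 had 137, 123, 50.5 and 39.4 CPM.

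Of 46 analysed genes of pattern recognition, 40 (87%) reached 1 CPM in all samples, near the 79.5% of protein-coding genes, with a median of 21.2 CPM against 25.6 CPM. Of the Toll-like receptors, Tlr13 and Tlr7, which read bacterial ribosomal and single-stranded RNA in endosomes, had 142, 178 and 189 CPM and 144, 161 and 179 CPM. Tlr4, the lipopolysaccharide receptor, through which free haem can also signal, had 77.7, 89.4 and 84.9 CPM, and Tlr2 76.8, 73.6 and 70.5 CPM. Per length Tlr7 exceeded Tlr4 by a factor of 2.61 ± 0.225 (SD, n = 3). The TLR4 partners Cd14 and Ly96 (MD-2) had 146 and 7.91 CPM. Tlr3 had 2.34 CPM, and Tlr5 and Tlr8 were under 1 CPM. The adaptors Myd88 and Ticam1 (TRIF) had 30.9 and 16.6 CPM.

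The C-type lectin Clec4e (Mincle), which senses mycobacterial glycolipids and dead cells, had 379.5, 333 and 361 CPM, and its partner Clec4d 246, 271 and 294 CPM. Clec7a (dectin-1), the receptor of beta-glucan, had 25.8, 23.5 and 25.1 CPM, below Clec4e per length by a factor of 7.67 ± 0.151 (SD, n = 3). The 12 analysed cytosolic sensors were all above 1 CPM, with Aim2, a DNA sensor, at 146 CPM, Nlrp3 at 62.8 and Nlrc4 at 13.98 CPM. Genes of the inflammasome ranged from abundant to nearly without counts. Casp1, the protease that matures interleukin-1β, had 104, 107 and 125 CPM and the pore former Gsdmd 97.5, 94.8 and 92.9 CPM, while Pycard, which encodes the ASC adaptor that links sensor to caspase, had 4, 0 and 4 counts. Its exon bases overlap another gene at 12.8% and its windows are shared at 0%.

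Phagocytic receptors passed 1 CPM in 31 of 37 analysed cases (83.8%), near the 79.5% of protein-coding genes. Fcgr3 and the inhibitory Fcgr2b had 176 and 164 CPM, Fcgr1 61.7 and Fcgr4 12.8 CPM. Trem2 stood above Trem1, which amplifies inflammation, by a factor of 9.62 ± 1.84 per length (SD, n = 3). All 10 TREM and CD300 genes passed. Mertk, which clears apoptotic cells, had 18.5 CPM and the bridging protein Mfge8 131 CPM. Inhibitory receptors were led by Lilrb4a at 888, 691 and 752 CPM and Cd33, a sialic acid receptor, at 386, 337 and 388 CPM. Lilrb4a shares 46.7% of its windows, most with the gene model Gm49339. Sirpa and its ligand Cd47 had 194 and 91.8 CPM, Cd200r1 43.2, Cd274 (PD-L1) 39.7 and Havcr2 (TIM-3) 55.1 CPM.

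Genes of class I antigen presentation were expressed. B2m had 1524, 1454 and 1442 CPM, and the heavy chains H2-D1 and H2-K1 409.9 and 217 CPM. All 14 analysed class I genes passed 1 CPM, although the peptide transporter Tap2 and the immunoproteasome subunit Psmb9 had 4.32 and 8.18 CPM. Of class II, 3 genes were analysed here, with 61.1, 55.3 and 42.04 CPM for the invariant chain Cd74, 16.3 CPM for H2-DMb1 and 16, 5 and 8 counts for H2-DMa. H2-Aa, H2-Ab1, H2-Eb1 and Ciita were not analysed here. The costimulators Cd86, Cd80 and Cd40 had 159.7, 22.2 and 24.9 CPM.

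Subunits of the phagocyte oxidase were expressed. Cyba (p22phox), Ncf1 and Ncf4 had 176, 160.2 and 88.2 CPM, Rac2 247 CPM and the catalytic subunit Cybb (NOX2) 68.8, 50.2 and 59.6 CPM. Nos2, the inducible nitric oxide synthase, had 85.3, 68.8 and 67.4 CPM, and Arg1, which competes for arginine, 8, 9 and 5 counts. Per length Nos2 exceeded Arg1 by a factor of 87.1 ± 19.3 (SD, n = 3). In the eicosanoid pathway, Pla2g4a, which frees arachidonic acid, had 274 CPM, Ptgs2 (COX-2) 122, 93.2 and 102 CPM, Ptgs1 47.02 CPM and Hpgds, which makes prostaglandin D2, 237 CPM. Of the lipoxygenase branch Alox5ap had 35.01 CPM and Lta4h 107 CPM, but Alox5 itself, the enzyme on which leukotriene synthesis depends, only 4, 5 and 2 counts.

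Purine receptors lay low. The ATP-gated channels P2rx4 and P2rx7 led at 42.8, 40.1 and 42.2 CPM and 33.8, 33.1 and 34.9 CPM, and Adora2b, P2ry2 and P2ry1 had 8.37, 8.54 and 6.30 CPM. P2ry6, which triggers phagocytosis, had 27, 57 and 32 counts and P2ry13 22, 22 and 39 counts. Of 39 neurotransmitter receptors 10 were analysed here, 5 of them at 1 CPM in all samples. Adra1a, an adrenergic receptor, had 10.9, 10.9 and 11.8 CPM, Chrnb2 7.05 CPM and Gabbr1 3.28 CPM. Drd1 had 41, 16 and 18 counts, a mean of 1.56 CPM that falls to 1.01 CPM without replicate 1.

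Cell cycle genes were expressed throughout. All 25 cell cycle genes reached 1 CPM in all samples, with a median of 152 CPM. Mki67 had 1179, 1151 and 1162 CPM, Top2a, which untangles chromosomes, 739, 721 and 742 CPM, and Pcna, the clamp of DNA polymerase, 482, 518 and 512 CPM. Among inhibitors Cdkn2a had 102, 116 and 87.4 CPM, Trp53 85.5 CPM and Cdkn1a (p21) 58.5 CPM. Myc, the cellular relative of a viral gene carried by the line, had 31, 53 and 18 counts (2.02 CPM), and reads of the viral form were not analysed here.

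Secreted factors and proteases closed the profile. Psap and Grn, precursors of lysosomal saposins and granulins, had 567 and 328 CPM, Igf1 96.1, 94.4 and 100.4 CPM and Vegfa 86.6, 80.2 and 85.97 CPM. Bdnf was not analysed here. All 11 cathepsins passed 1 CPM, with 2651 CPM for Ctsb, 1534 for Ctsl, 863 for Ctsz and 742 CPM for legumain (Lgmn). Plau, the urokinase that activates plasmin, had 582, 578 and 509.9 CPM and its receptor Plaur 57.04, 64.2 and 57.5 CPM. The sheddases Adam8, Adam17 and Adam10 had 362, 379 and 224 CPM, while the gelatinases Mmp2 and Mmp9 had 3.71 and 1.96 CPM, and Mmp14 was under 1 CPM. Timp1, an inhibitor of matrix proteases, had 1, 15 and 18 counts and Timp2 31.7 CPM.

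The 3 samples were close. Across the 12753 genes at a mean of 1 CPM or more, log2 CPM correlated at 0.988 to 0.990 between samples, over genes that are not independent replicates. The biological coefficient of variation that edgeR estimated over 12784 genes was 10.4%. Counts of a gene in 2 samples differed by a chi-square of 6.39 to 10.6 on average, so no 2 samples agreed within sampling noise, which says nothing of whether they came from separate cultures. Replicate 3 was the farthest from the mean for 3815 of 9100 genes at 10 CPM or more (41.9%), against 29.6% and 28.5% for replicates 1 and 2. Up to 1000 CPM the median CV fell with the level. It was 23.2% at 1 to 10 CPM, 8.66% at 10 to 100 CPM and 5.71% at 100 to 1000 CPM. Counting alone would give 14.1%, 4.09% and 1.91%. At 1000 CPM or more (68 genes) the median CV was 6.36%, where counting alone would give 0.637%.

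Among 8718 protein-coding genes at 10 CPM or more the median CV was 7.62%, and 30 exceeded 30%. The largest was that of Srp54a, a subunit of the signal recognition particle, at 17.6, 6.98 and 20.5 CPM, with 70.5% of its windows shared. Ddit3 (CHOP), a factor of the unfolded protein response, had 35.5, 22.9 and 17.1 CPM and so fell into a high, a middle and a low sample, and Ccdc171 had 10.1, 10.1 and 19.1 CPM, with replicate 3 high. In Nme4 (19.8, 21.2 and 10.4 CPM), AI413582 (16.3, 16.6 and 7.99 CPM) and Akr7a5 (14.2, 13.5 and 7.05 CPM) replicate 3 was low, in Cbr1 (15.6, 10.2 and 7.87 CPM) replicate 1 was high, in Zfp36l1 (9.04, 14.96 and 8.24 CPM, 55.9% of exon bases in another gene) replicate 2 was high, and Arhgap22 and Gemin8 had CVs of 35.8% and 34.6%. The 10 steadiest genes had CVs from 0.141% (Ppm1b, a phosphatase) to 0.410% (Rufy3) and included Srsf7 (236, 236 and 236 CPM), Dnaja2, Sntb2, Prkar2b, Ppp1r9b, Nek4, Asl and Amer1. These are below what counting alone would give at their level, so 3 samples do not rank genes this steady.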

How the data were processed

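Per the labels' protocols, total RNA (1.3 ug a sample, RNeasy columns) was made into libraries with a SMARTER mRNA-seq kit. The authors deposited 2 tables of raw read counts per Ensembl gene, and the counts of the oxy-Hb samples were the same in both (0 differed). The submitters' processing notes name the builds GRCm38 and mm10. Not given in the sources used here are the aligner, the counter, its strand setting and what it did with reads that match several genes, so a gene's counts may hold reads of one that overlaps it.

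From the counts, CPM (by the sample total), TPM, SDs and CVs over 3 samples were computed in Python 3.11.15, and no test was made because the samples form 1 group. Merged exon length, exon overlap with other genes on either strand, shared windows of 50 bases and UTRs came from GENCODE M21 (GRCm38), which held 22918 of 22935 identifiers, 22133 with the same start and end. Of the symbols, 9 that had become dates were restored. edgeR 4.0.16 and DESeq2 1.42.0 gave alternative scalings, and edgeR the dispersion. The level functions were tested on simulated data. Errors are SDs between these samples, which may be technical.

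Named were the 25 genes highest by CPM and by TPM, the 10 largest and 10 smallest CVs among protein-coding genes at 10 CPM or more, and, in each list and role, up to 6 of the highest members, up to 6 in the lowest level class and any defining marker. Other list members, the pseudogenes and the genes with shared windows were chosen after their values were seen. Some listed genes count in the list totals but are not reported here by name. The samples and all lists were chosen with earlier results of these data known. Alternatives were other scalings, thresholds, gene sets, lengths and leaving out each sample.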

Additional observations from a re-analysis of the deposited data

How the results depend on the processing

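Leaving out each sample in turn gave 19976 to 20067 genes detected against 20842, 12269 to 12322 genes at 1 CPM or more against 12079, 21.4% to 21.55% of counts in the 100 most abundant genes, a mitochondrially encoded share of 5.39% to 5.54% and a ribosomal protein share of 3.70% to 3.89%. TMM, DESeq2 and upper quartile scaling all left 12079 genes at 1 CPM or more, because none moved a threshold past a whole count, and taking the total without mitochondrially encoded genes gave 12128. A threshold of 0.5 CPM gave 13105 genes, one of 5 CPM 9955, and protein-coding genes alone 10558. Asking for more than 3 counts in every sample left 14448 of the detected genes, and protein-coding genes alone 12954. Without mitochondrially encoded genes the 100 most abundant held 17.7% of the counts and ribosomal proteins 4.02%. Of 626 genes whose level was followed, TMM, DESeq2 and upper quartile scaling moved 0 by more than their SD, and the smaller total moved 160, by 1.06 times. With the longest transcript in place of merged exons, 22 of the first 25 genes by length stayed among the first 25, while the rank of 357 of 626 genes moved by more than its spread over samples. At 5 CPM in place of 1, cytokines went from 27 to 15, complement from 14 to 9, purine receptors from 11 to 6, other cell types from 9 to 5, chemokine receptors from 7 to 3 and neurotransmitter receptors from 5 to 3, and at 0.5 CPM red cell genes from 0 to 1. No paired analysis was possible because the 3 samples form 1 group. With 3 samples no value was examined for standing apart, and a gene without a count allows up to 3 counts in each sample. Intervals and floors cover counting error only.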

Other observations

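The gene lists here were added after levels had been seen. Of the receptors for lipid mediators and metabolites, 17 of 28 analysed genes (60.7%) reached 1 CPM in all samples, against 79.5% of protein-coding genes. The prostacyclin receptor Ptgir had 80, 85.95 and 72.7 CPM, and Hcar2, the receptor of niacin and beta-hydroxybutyrate, 82.2, 67.6 and 73.2 CPM. The proton sensor Gpr65 had 55.8 CPM, Gpr132 44 CPM, the oxysterol receptor Gpr183 19.8, 28.4 and 33.2 CPM and the cannabinoid receptor Cnr2 7.72 CPM. Ptger4 had 8.16 CPM and Ptger2 0, 4 and 9 counts, beside the COX-2 level given above. Among ion channels, Trpm7 had 284 CPM, the inward rectifier Kcnj2 129.8, 114 and 127 CPM, Trpv2 107 CPM, Piezo1 80.9 CPM and Kcnn4 30.6 CPM, and Kcna3 had 14, 45 and 26 counts. Of the receptor tyrosine kinases, Csf1r, Met and Flt1 were the highest per length (36.5, 29.8 and 27.5 TPM), and the insulin receptor Insr had 60.97 and Igf1r 51.4 CPM.

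All 10 NF-kB genes reached 1 CPM in all samples, from 4.43 TPM for Nfkbie to 104 TPM for Nfkbia, both inhibitors of NF-kB. Atf4, a factor of the integrated stress response, had 511, 525 and 472 CPM, and Hif1a 344, 335 and 354 CPM. Of the immediate early genes Fos had 54.2 CPM, Jun 65.5 CPM and Junb 76.4 CPM, and Fosb had 142, 48 and 49 counts, with replicate 1 high: its mean of 4.99 CPM becomes 2.86 CPM without that sample. The glucocorticoid receptor Nr3c1 had 79.4 CPM, Nr1h2 (LXRβ) 35.4 CPM, Nr1h3 (LXRα) 3.73 CPM, and Pparg 5, 9 and 6 counts.

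Genes that are used to normalise PCR differed in spread. Eef1a1 varied by a CV of 0.967%, B2m by 3.02%, Sdha by 4.25%, Hprt by 2.26%, Actb by 10.1%, Gapdh by 5.54%, Ppia by 9.54%, Pgk1 (53.9% of windows shared) by 14.7%, Actg1 by 15.5% and Tbp by 13.7%. With Xist at 2934 CPM, the X genes Ddx3x, Eif2s3x, Usp9x, Kdm5c and Kdm6a had 652, 198, 177, 128 and 105 CPM. Their relatives on Y were not analysed here, and the 6 listed genes of chromosome Y held 0.000651% of the counts.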
